A study of Mus musculus with 31 samples.

Results

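The contrast between Drd1a- and Drd2-expressing cells was compared between striatum and cortex of old mice. For each array feature the Drd1a minus Drd2 difference in cortex was subtracted from the Drd1a minus Drd2 difference in striatum, and this interaction answers whether the 2 cell types differ in the same way in both regions. The arrays were chosen by their sample titles, which gave 16 of the 31 arrays of the series. These were 4 arrays each of old striatum Drd1a cells, old striatum Drd2 cells, old cortex Drd1a cells and old cortex Drd2 cells, all from mice aged 2 years. The other 15 arrays, from mice aged 6 weeks, entered only the comparison between ages. All arrays carried RNA from translating ribosome affinity purification, in which ribosomes of a genetically marked cell type are pulled out of a tissue with their bound messages. For the cortical arrays the whole cortex was the starting tissue. Neither the strain nor the sex is stated in the sources used here, nor which transgene marks the cells. Replicates are not labelled as separate mice, and the p-values reflect only the spread among the arrays, which may be technical.

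Striatal projection neurons fall into a direct pathway, whose cells carry the D1 dopamine receptor, and an indirect pathway, whose cells carry the D2 receptor. D1 receptors raise cAMP and D2 receptors lower it, and the pathways also differ in their peptides, with tachykinin 1 and dynorphin on the direct side and enkephalin on the indirect side. The cortex holds no such projection neurons, and its dopamine receptors are spread over excitatory cells of several layers and over GABA interneurons. A positive interaction means that a message leaned more to the Drd1a cells in striatum than in cortex, and a negative one that it leaned more to the Drd1a cells in cortex.

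The receptor genes followed the labels in both regions. Values here and throughout are log2 levels relative to the median of the same feature over the 31 arrays, so levels cannot be compared between genes. Drd1, the D1 receptor gene named Drd1a in the labels, lay at 1.86, 1.62, 1.76 and 1.72 in striatum Drd1a arrays, against -0.58, 0, -0.42 and -0.35 in striatum Drd2 arrays. In cortex it lay at 1.19, 0.74, 0.67 and 0.71 in Drd1a arrays, against -1.90, -0.76, -1.02 and -1.03 in Drd2 arrays. The Drd1a and Drd2 arrays did not overlap in either region. The difference was 2.07 ± 0.19 (SE) in striatum and 2.01 ± 0.19 in cortex, so that the interaction was 0.068 ± 0.27 (adjusted p = 0.932), a value that turned to -0.87 after quantile normalization.

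Drd2 lay between -3.57 and -2.90 in striatum Drd1a arrays, against 0.55, 0.46, 0.57 and 0.64 in striatum Drd2 arrays. The cortex Drd1a arrays held -3.92, -3.96, -3.84 and -3.62, against 0, 0.090, 0.33 and 0.40 in cortex Drd2 arrays. Its difference was -3.82 ± 0.13 in striatum and -4.04 ± 0.13 in cortex, and its interaction of 0.22 ± 0.18 was not called (adjusted p = 0.711). In such purified tissue RNA, fewer cells of a type and less RNA per cell cannot be told apart.

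Array medians ran from -0.072 to 0.13, and 1 array in each of the 4 groups lay above 0.05 (striatum Drd1a replicate 2, striatum Drd2 replicate 3, cortex Drd1a replicate 4 and cortex Drd2 replicate 1). After the group means were taken out, the first component of the remaining variation held 39.2% of it and gave these 4 arrays its 4 lowest scores. Within groups, the arrays correlated at 0.249 to 0.798 over all features, and no 2 arrays were identical. Precision is limited by the array number, with a median standard error of 0.11 for a difference within a region and 0.15 for the interaction.

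Of 16345 features, 145 were called for the interaction in old mice (0.887%), where called means a Benjamini-Hochberg adjusted p from limma under 0.05 over all features and a change of at least 1.2-fold. The positive calls numbered 51 (0.312%) and the negative calls 94 (0.575%). This split depends on the scaling: quantile normalization gave 64 positive and 48 negative calls, and centring each array on its median gave 55 positive and 77 negative. The median interaction of all features was -0.070 as deposited, against -0.0090 and -0.011 under these scalings. Called interactions ran from 1.34-fold to 9.40-fold, with a median of 1.78-fold. At an unadjusted p under 0.05 there were 1721 features. Without the 4 arrays whose medians lay above 0.05 the count was 249, and with 1 array left out at a time it ran from 71 to 243. With array weights it was 1632, of which 357 were positive and 1275 negative.

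The Drd1a minus Drd2 difference itself was called for 334 features in old striatum (2.04%), 196 of them higher and 138 lower in Drd1a cells, against 408 higher and 484 lower with array weights. In old cortex it was called for 762 features (4.66%), of which 444 were higher and 318 lower in Drd1a cells, against 228 and 352 after quantile normalization and 347 and 378 after centring. The difference was called in both regions for 120 features. It had the same sign in both for 113 of these, with 60 higher in Drd1a cells and 53 higher in Drd2 cells, and opposite signs for 7. Of the 113 shared features 7 had a called interaction (6.19%), against 0.887% of all features. Of the 976 features with a called difference in at least 1 region, 136 had a called interaction. The differences and the interaction come from the same arrays and fit, so these shares do not stand apart from each other.

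Most of the 145 interactions came with a called difference in 1 region. The striatal difference alone was called for 41 of them (28.3%), with 22 higher and 19 lower in striatum Drd1a cells. The cortical difference alone was called for 81 (55.9%), with 58 higher and 23 lower in cortex Drd1a cells. After quantile normalization this cortical set held 50 features, with 31 positive and 19 negative interactions, so the leading direction turned. With single arrays left out it held from 35 (without cortex Drd1a replicate 2 or 3) to 164 (without cortex Drd2 replicate 1), and the striatal set from 18 (without striatum Drd1a replicate 3) to 48. The other called features comprised 7 with opposite called differences (4.83%), 7 with called differences of 1 sign but unequal size (4.83%) and 9 called in neither region (6.21%). In all 145 the Drd1a and Drd2 arrays were fully apart in at least 1 region. The calls were made on the same arrays, so this is no separate support, and the share over all features was not summarised. A single gene symbol was assigned to 136 of the 145 and several symbols to 5, and 4 had no entry in the platform's gene table.

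**Figure D1:**
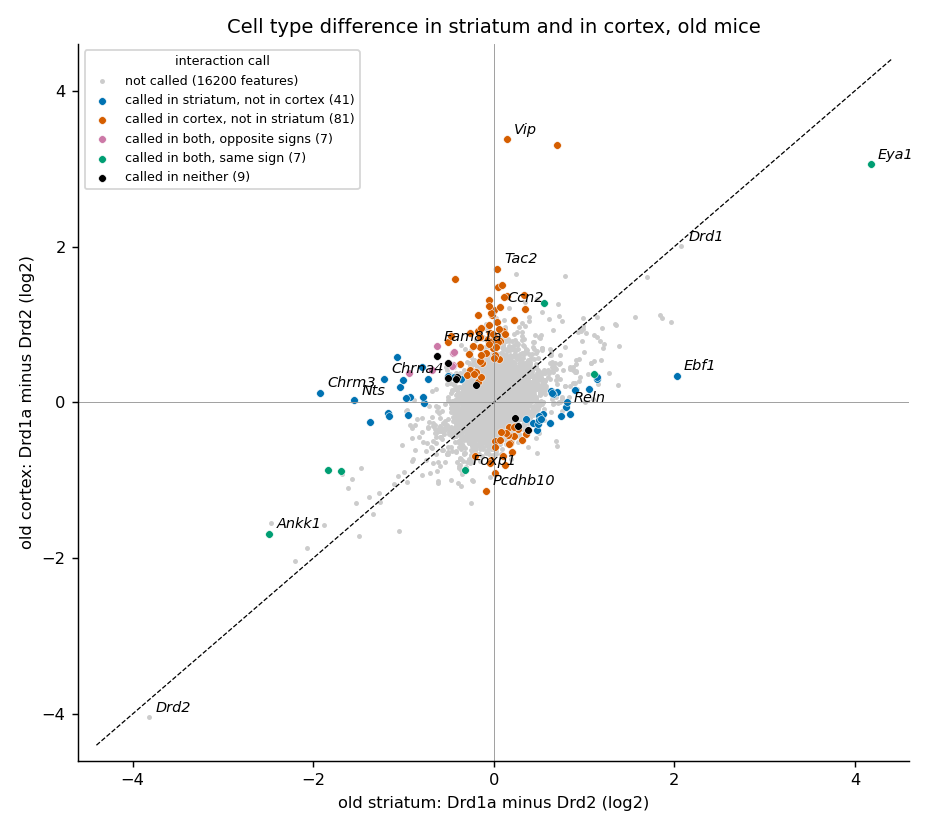
Drd1a minus Drd2 difference in old striatum (x axis, log2) against that in old cortex (y axis, log2) for all 16345 features, with 4 arrays in each group. Grey points had no called interaction, coloured points are the 145 called features by the region in which the difference itself was called, and the dashed line marks equal differences. Vip stands far above the line at 0.15 in striatum and 3.38 in cortex, whereas Drd1 and Drd2 lie close to it.

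The 8 direct-pathway markers measured were all higher in Drd1a cells of both regions. Their median difference was 1.85 in striatum and 1.11 in cortex. Each of the 8 was called in each region, beside 2.04% of all features in striatum and 4.66% in cortex. Their median interaction was 0.59, against -0.070 over all features, and all 8 values were above 0 as deposited. Only Eya1 was called for the interaction, which is 1 of 8 where 0.887% of all features were called. The Drd1 value turned below 0 after quantile normalization, and those of Drd1, Tac1 and Sfxn1 did so when single arrays were left out.

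Eya1, a transcriptional co-activator with phosphatase activity, lay at 3.78, 3.76, 3.85 and 3.74 in striatum Drd1a arrays, against -0.37, -0.47, -0.60 and -0.13 in striatum Drd2 arrays. Cortical arrays gave 3.15, 2.72, 2.90 and 2.81 for Drd1a cells, against -0.054, 0, -0.56 and -0.029 for Drd2 cells. The 4 groups of arrays put Eya1 high in Drd1a cells of both regions, more so in striatum. The difference was 4.17 ± 0.13 in striatum and 3.05 ± 0.13 in cortex, and the interaction of 1.12 ± 0.18 was called (adjusted p = 0.00536), though not after quantile normalization, where it was 0.93.

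Isl1, a LIM-homeodomain factor of direct-pathway neurons, had differences of 1.96 ± 0.17 in striatum and 1.03 ± 0.17 in cortex. Its interaction of 0.93 ± 0.24 was not called (adjusted p = 0.103). Pdyn, the prodynorphin gene, had 1.87 in striatum and 1.09 in cortex, with an interaction of 0.78 ± 0.21 (adjusted p = 0.115) that was called after quantile normalization at 1.13. Chrm4, the muscarinic M4 receptor that opposes D1 signalling, had 1.84 in striatum and 1.13 in cortex, with an interaction of 0.71 ± 0.25 (adjusted p = 0.258). The orphan transporter gene Slc35d3 had an interaction of 0.47 ± 0.20 (adjusted p = 0.417). Tac1, the tachykinin precursor that gives substance P, was higher in Drd1a cells by 1.14 in striatum and 1.09 in cortex. Sfxn1, a mitochondrial serine carrier gene, was higher by 1.70 and 1.61 in the same regions. The interactions of Tac1 (0.050 ± 0.21) and Sfxn1 (0.084 ± 0.15) lay within 1 standard error of 0.

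Of 10 indirect-pathway markers 6 were measured, and Adora2a, Gpr52, Sp9 and Grik3 were not analysed here. All 6 were called lower in Drd1a than in Drd2 cells of striatum, and all but Plxdc1 in cortex as well. Of all features 2.04% were called either way in striatum and 4.66% in cortex. The median difference was -1.52 in striatum and -1.16 in cortex. The median interaction was -0.18, which lay at 0.016 without the 4 arrays of high median. Ptprm, a receptor tyrosine phosphatase, was the 1 called member of the 6, beside 0.887% of all features. It lay at -0.91, -0.77, -0.85 and -0.74 in striatum Drd1a arrays, against 0.74, 0.85, 0.73 and 1.19 in striatum Drd2 arrays, and at -0.63, -0.79, -0.61 and -0.56 in cortex Drd1a arrays, against 0.43, 0.080, 0.26 and 0.14 in cortex Drd2 arrays. It was lower in Drd1a cells of both regions, with differences of -1.70 ± 0.10 in striatum and -0.87 ± 0.10 in cortex, and the interaction was -0.82 ± 0.14 (adjusted p = 0.00997). The interaction was not called under the replicate block of cell type and number (adjusted p = 0.0508 by limma).

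Penk, the enkephalin precursor, differed by -0.47 ± 0.073 in striatum and -0.42 ± 0.073 in cortex. Its interaction of -0.052 ± 0.10 changed sign to 0.0034 after quantile normalization and to 0.0070 after centring. Upb1, a pyrimidine breakdown enzyme, differed by -1.34 in striatum and -1.44 in cortex (interaction 0.10 ± 0.20). The orphan receptor gene Gpr6 had -1.88 in striatum and -1.57 in cortex, and its interaction of -0.31 ± 0.36 turned to 0.040 without the 4 arrays of high median. Plxdc1 had -0.90 in striatum, which was called, and -0.46 in cortex, which was not (interaction -0.44 ± 0.23, adjusted p = 0.548).

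**Figure D2:**
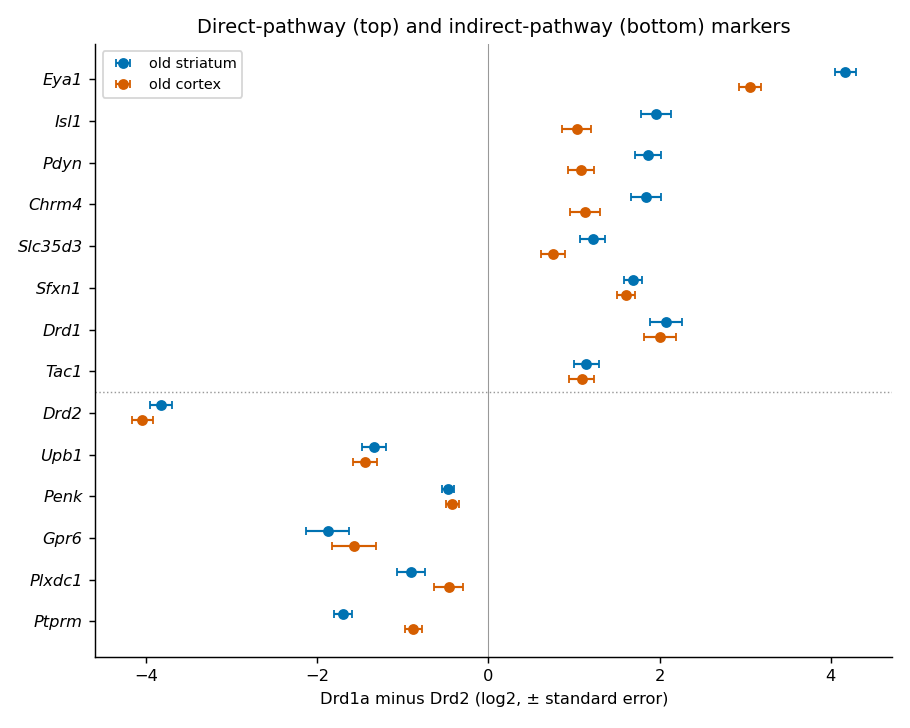
Drd1a minus Drd2 difference (log2, x axis) of the 8 direct-pathway markers (above the dotted line) and the 6 measured indirect-pathway markers (below it). Blue points are old striatum and orange points old cortex, bars are ± 1 standard error from limma, with 4 arrays a group. Every marker keeps its side of 0 in both regions, and the gap between the points is widest for Eya1, Isl1 and Ptprm.

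The most negative interactions included messages of GABA interneurons and neuropeptides. Of 22 neuropeptide precursor genes and relatives measured 4 were called, all negative (Vip, Tac2, Nts and Cck), beside 0.575% of all features called negative. The list's median interaction was -0.44, and 18 of its 22 values were below 0. In striatum 4 of the 22 were called higher and 2 lower in Drd1a cells, beside 2.04% of all features called either way. In cortex 10 were called higher and 1 lower, beside 4.66% of all features. After quantile normalization the list's median was -0.29. Vip, Tac2, Nts and Cck are shown here by the 250 bases before their RefSeq start sites (GRCm38.p6), because their messages shared the sign of the interaction and several peptide genes are textbook targets of the cAMP response element. Capitals mark TGACG or its reverse complement CGTCA, the core of that element, searched on both strands. All 4 genes matched the RefSeq table by symbol.
Vip (chr10:5638968-5639217, plus strand): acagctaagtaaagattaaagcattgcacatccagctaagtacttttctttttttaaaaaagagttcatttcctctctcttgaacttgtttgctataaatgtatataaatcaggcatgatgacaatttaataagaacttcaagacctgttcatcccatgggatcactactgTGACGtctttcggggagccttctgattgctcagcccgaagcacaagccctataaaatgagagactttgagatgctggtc
Tac2 (chr10:127724228-127724477, plus strand): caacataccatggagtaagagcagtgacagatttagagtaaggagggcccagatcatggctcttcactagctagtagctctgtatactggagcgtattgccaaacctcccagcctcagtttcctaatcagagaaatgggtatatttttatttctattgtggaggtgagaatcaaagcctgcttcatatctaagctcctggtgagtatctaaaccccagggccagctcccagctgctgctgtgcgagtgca
Nts (chr10:102490419-102490668, minus strand): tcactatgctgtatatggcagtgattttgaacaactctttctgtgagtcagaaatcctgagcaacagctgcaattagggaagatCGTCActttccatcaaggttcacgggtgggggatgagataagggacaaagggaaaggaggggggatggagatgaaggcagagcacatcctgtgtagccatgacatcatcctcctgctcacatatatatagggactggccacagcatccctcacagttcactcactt
Cck (chr9:121495695-121495944, minus strand): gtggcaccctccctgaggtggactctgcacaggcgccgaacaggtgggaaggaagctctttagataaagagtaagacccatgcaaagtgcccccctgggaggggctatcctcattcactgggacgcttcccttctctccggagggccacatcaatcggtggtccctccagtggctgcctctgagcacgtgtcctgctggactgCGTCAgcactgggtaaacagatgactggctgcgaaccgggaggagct
The core begins 79 bases before the start of Vip, 166 before that of Nts and 47 before that of Cck, and these letters are not in the window of Tac2. None of the 4 windows holds the whole element TGACGTCA, which contains the core on both strands. Among 32851 RefSeq promoter windows of the same 250 bases, 17.8% hold the core and 1.55% the whole element. These matches describe the sequence and were not tested for binding.

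Vip, the vasoactive intestinal peptide gene of a class of cortical interneurons, had the most negative interaction among features with 1 gene symbol. It lay at -0.46, -0.072, -0.44 and -0.43 in striatum Drd1a arrays, against -0.52, -0.27, -0.49 and -0.72 in striatum Drd2 arrays. Its cortical values were 3.40, 3.74, 4.10 and 3.92 in Drd1a arrays, against 0.41, 0.32, 0.43 and 0.47 in Drd2 arrays. The cortex Drd1a arrays stood far above the other 12, while the striatal arrays of both cell types overlapped. The difference was 0.15 ± 0.13 in striatum and 3.38 ± 0.13 in cortex, and the interaction was -3.23 ± 0.18, or 9.40-fold (adjusted p = 4.04e-08). Vip kept its call under every alternative run for single genes, namely both other scalings, all 31 arrays, the replicate block, the fit without the 4 arrays of high median and each array left out in turn.

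Tac2, the neurokinin B precursor, lay at 0.20, 0.031, -0.22 and -0.0053 in striatum Drd1a arrays, against -0.16, 0.018, 0.18 and -0.17 in striatum Drd2 arrays. In cortex it lay at 1.30, 2.12, 2.26 and 1.94 in Drd1a arrays, against 0.39, -0.21, -0.049 and 0.63 in Drd2 arrays. All cortex Drd1a arrays were above all cortex Drd2 arrays, and the striatal groups overlapped. Its difference was 0.034 ± 0.19 in striatum and 1.72 ± 0.19 in cortex, with an interaction of -1.68 ± 0.27 (adjusted p = 0.00587), not called after quantile normalization at -1.22. Cck, the cholecystokinin precursor, differed by -0.045 in striatum and 0.89 in cortex, with an interaction of -0.93 ± 0.17 (adjusted p = 0.0152), not called after quantile normalization at -0.61 or without the 4 arrays of high median at -0.96.

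Nts, the neurotensin precursor, reached its negative interaction from the striatal side. It lay at -2.20, -2.01, -1.92 and -2.21 in striatum Drd1a arrays, against -1.40, 0.12, -0.77 and -0.11 in striatum Drd2 arrays. The cortex Drd1a arrays held 0.14, 0.31, -0.35 and -0.030, against -0.12, -0.055, 0.12 and 0 in cortex Drd2 arrays. The striatum Drd1a arrays were the lowest 4 of the 16, and the striatum Drd2 arrays were widely spread. The difference was -1.55 ± 0.23 in striatum and 0.030 ± 0.23 in cortex, and the interaction of -1.58 ± 0.33 (adjusted p = 0.0287) lost its call with 8 of the 16 arrays left out in turn (highest adjusted p 0.0741), under both other scalings and without the 4 arrays of high median. Of the peptides not called for the interaction, Npy, the neuropeptide Y gene, was higher in Drd1a cells of both regions, by 0.79 in striatum and 1.62 in cortex (interaction -0.83 ± 0.20, adjusted p = 0.0647). Sst, the somatostatin gene, was higher in cortex Drd1a cells by 1.11 and had 0.72 in striatum, short of the threshold (adjusted p = 0.0578). Crh, the corticotropin-releasing hormone gene, was higher in cortex Drd1a cells by 0.81 and had 0.16 in striatum (interaction adjusted p = 0.193).

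Among 12 measured GABA interneuron markers 3 were called negative (Vip, Tac2 and Htr3a) and 1 positive (Reln), beside 0.575% and 0.312% of all features, and the list median was -0.35. Htr3a, the subunit of the ionotropic serotonin receptor that marks a class of cortical interneurons, lay at 0.95, 0.83, 1.07 and 1.10 in cortex Drd1a arrays, against 0.32, 0.15, -0.12 and -0.17 in cortex Drd2 arrays. The cortical groups did not overlap. In striatum Htr3a had a difference of 0.056 ± 0.12, and its interaction was -0.89 ± 0.17 (adjusted p = 0.0228), lost with 6 of the 16 arrays left out in turn and at -0.61 after quantile normalization. Reln, the gene of the extracellular glycoprotein reelin, lay at 1.29, 1.08, 1.07 and 1.10 in striatum Drd1a arrays, against 0.10, 0.52, 0.26 and 0.46 in striatum Drd2 arrays. Cortical arrays gave -0.49, -0.48, -0.48 and -0.50 for Drd1a cells, against -0.37, -0.43, -0.51 and -0.38 for Drd2 cells. The striatal groups were apart, and the cortical arrays of both cell types overlapped below all striatal arrays. The Reln difference was 0.80 ± 0.086 in striatum and -0.063 ± 0.086 in cortex, with an interaction of 0.86 ± 0.12 (adjusted p = 0.00183). Pvalb, the parvalbumin gene, was called higher in Drd1a cells of striatum (1.08) and had 0.50 in cortex (interaction 0.58 ± 0.30, adjusted p = 0.528).

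Several other messages were higher in cortex Drd1a cells with no called difference in striatum. Ccn2, the connective tissue growth factor gene and a marker of the deepest cortical layer, lay at -0.38, 0.083, -0.33 and -0.52 in striatum Drd1a arrays, against -0.49, -0.20, -0.20 and -0.53 in striatum Drd2 arrays. Its cortical values were 1.14, 1.18, 0.87 and 1.37 in Drd1a arrays, against 0.12, 0, -0.29 and -0.17 in Drd2 arrays. The cortex Drd1a arrays were all above the rest, and the striatal groups overlapped. The difference was 0.070 ± 0.13 in striatum and 1.22 ± 0.13 in cortex, with an interaction of -1.15 ± 0.19 (adjusted p = 0.00687). Nxph3, a neurexophilin, which binds neurexins, had -0.049 in striatum and 1.24 in cortex. Its interaction of -1.29 ± 0.25 (adjusted p = 0.0228) lost its call with 3 of the 16 arrays left out in turn, after quantile normalization and without the 4 arrays of high median. Ccn2 and Nxph3 were the 2 called members of 11 measured layer 6 and subplate markers, whose median interaction was -0.33, beside 0.575% of all features called negative. None of the 12 upper-layer, 10 layer 5 or 8 cortical excitatory markers measured was called, beside 0.887% of all features. The median interaction of the cortical excitatory markers was -0.38, against -0.079 after quantile normalization. With single arrays left out this median ran from -0.75 to -0.17. Of the 8, 3 were called higher in cortex Drd1a cells, beside 4.66% of all features called either way in cortex.

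Prss12, the gene of the synaptic protease neurotrypsin, lay at 1.48, 2.02, 1.31 and 1.23 in cortex Drd1a arrays, against 0.23, -0.13, 0 and 0.016 in cortex Drd2 arrays. The cortical groups did not overlap, and the striatal difference was 0.050. Its interaction was -1.43 ± 0.21 (adjusted p = 0.00272). Thrsp, a regulator of lipid synthesis, had -0.055 in striatum and 1.31 in cortex (interaction -1.36 ± 0.22, adjusted p = 0.00587). Luzp2 had -0.17 in striatum and 1.12 in cortex (interaction -1.29 ± 0.21). Cbfb, the partner subunit of RUNX transcription factors, had -0.47 in striatum and 0.85 in cortex (interaction -1.32 ± 0.24). Grk3, a kinase that desensitises G protein-coupled receptors, had -0.50 in striatum and 0.78 in cortex (interaction -1.28 ± 0.20). The striatal difference of Grk3 was not called, though its Drd1a and Drd2 arrays did not overlap there. Prss12, Thrsp, Luzp2, Cbfb and Grk3 kept their calls under the same alternatives. Vegfd, a vascular endothelial growth factor gene, had 1.51 in cortex and an interaction of -1.42 ± 0.32 (adjusted p = 0.0407) that was lost with 14 of the 16 arrays left out in turn. Its cortex Drd1a values of 0.98, 2.49, 2.16 and 2.12 put replicate 1 well below the others.

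Signalling and adhesion genes named from the lists were few. Rgs12, a regulator of G protein signalling, lay at 0.55, 0.59, 0.56 and 0.55 in cortex Drd1a arrays, against 0.11, 0.13, -0.046 and 0.040 in cortex Drd2 arrays, and had an interaction of -0.64 ± 0.11 (adjusted p = 0.00755). It was the 1 called gene of 21 in its family, beside 0.575% of all features called negative. Ncald, the calcium sensor neurocalcin, had -0.050 in striatum and 0.99 in cortex (interaction -1.04 ± 0.19, adjusted p = 0.0148), not called after centring at -0.98, and was the 1 called gene of 18 calcium sensors, beside the same share. Sema3c, a secreted guidance cue, had 0.77 in cortex and an interaction of -0.73 ± 0.16 (adjusted p = 0.0382) that was lost with 13 of the 16 arrays left out in turn. Sema3c was also not called after quantile normalization, at -0.36, or under the replicate block of cell type and number. With Slit2 it made 2 called genes among 63 guidance genes, beside 0.575% of all features called negative.

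S100b, a calcium-binding protein of astrocytes, was the 1 called member of 14 measured astrocyte markers, beside 0.575% of all features called negative, with -0.23 in striatum, 0.72 in cortex and an interaction of -0.95 ± 0.22 (adjusted p = 0.0469). It lost its call with 11 of the 16 arrays left out in turn and under both other scalings. All 14 astrocyte markers had interactions below 0, as did all 10 vessel and all 8 cortical excitatory markers. The astrocyte median was -0.29, against -0.070 over all features. After quantile normalization these medians were -0.17 and -0.0090. The share of all features below 0 was not summarised. Apoe, the apolipoprotein E gene, was higher in cortex Drd1a cells by 1.04 (interaction -1.03 ± 0.25, adjusted p = 0.0718). The astrocyte list mean ran from -0.36 to -0.076 in striatum Drd1a arrays, -0.24 to -0.11 in striatum Drd2 arrays, 0.46 to 0.89 in cortex Drd1a arrays and 0.068 to 0.70 in cortex Drd2 arrays. The part of these cells in the negative interactions was not tested.

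**Figure D3:**
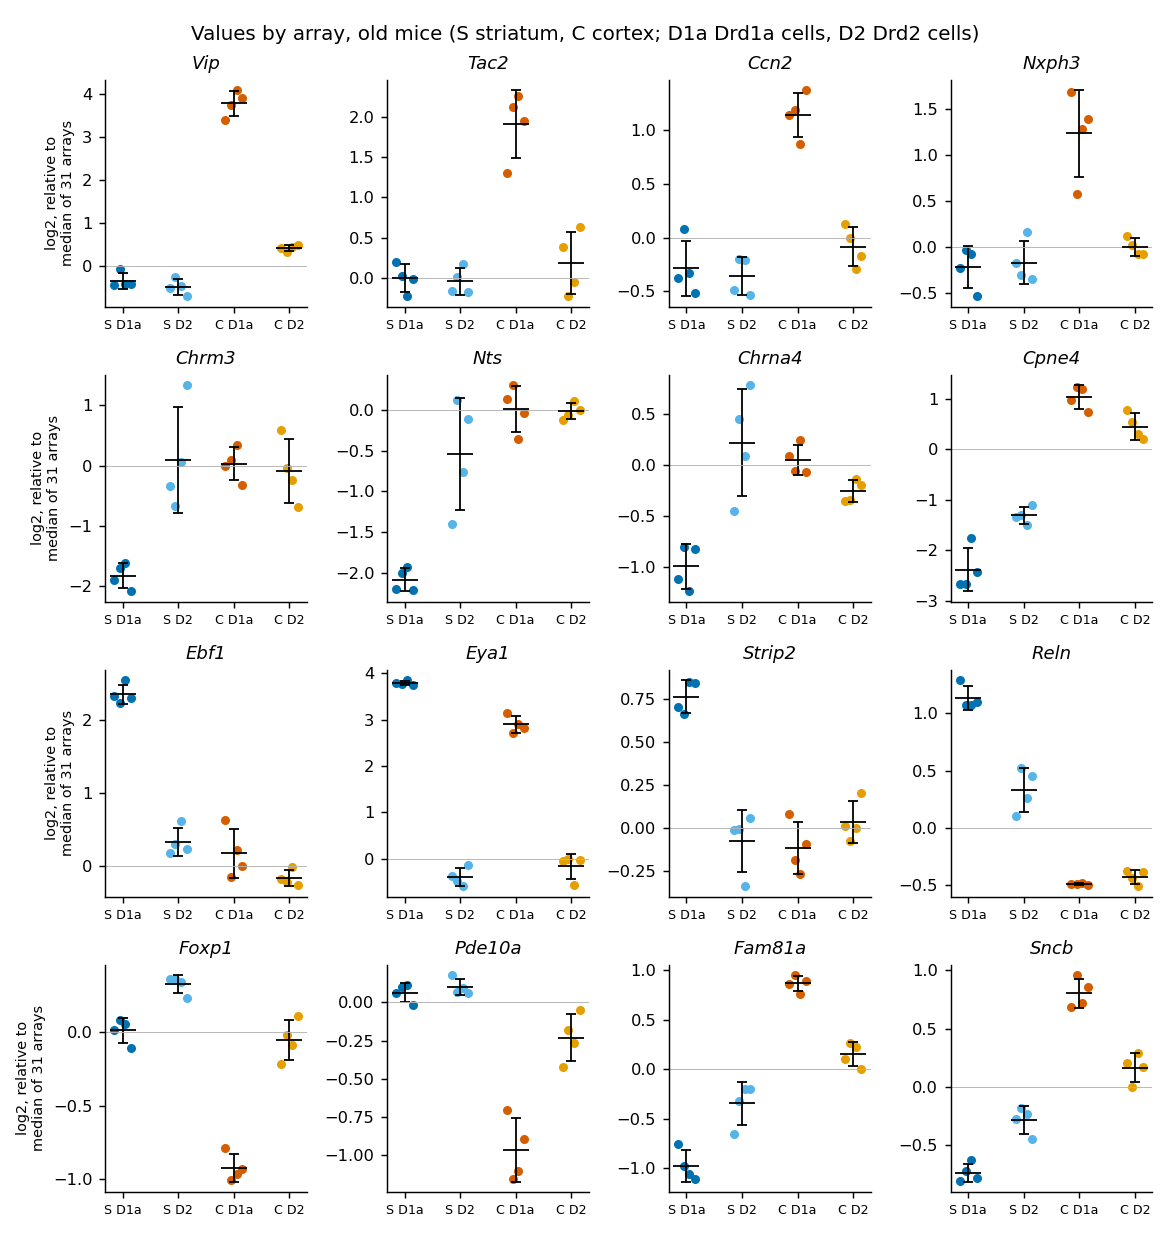
Values of 16 genes in each of the 16 old arrays (log2 relative to the median of 31 arrays, y axis, with its own scale in each panel). Points are arrays, the long line is the group mean and the bar ± 1 SD (n = 4), with striatum Drd1a, striatum Drd2, cortex Drd1a and cortex Drd2 cells from left to right. The first row shows genes raised in cortex Drd1a cells, the second mainly genes low in striatum Drd1a cells, the third genes high in striatum Drd1a cells and the fourth genes low in cortex Drd1a cells or opposite in the 2 regions.

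Positive interactions with a called lower value in cortex Drd1a cells held several genes of striatal projection neurons. Among those named here, only Foxp1 also had a called striatal difference. Of 12 measured general markers of these neurons 4 were called, all positive (Actn2, Pde10a, Foxp1 and Pde1b), beside 0.312% of all features. The list's median interaction was 0.47, against 0.59 after quantile normalization. In striatum 1 of the 12 was called lower in Drd1a than in Drd2 cells, and in cortex 9 were. Of all features 2.04% were called either way in striatum and 4.66% in cortex. The list mean ran from -0.0092 to 0.16 in striatum Drd1a arrays, 0.11 to 0.16 in striatum Drd2 arrays, -0.78 to -0.53 in cortex Drd1a arrays and -0.41 to -0.027 in cortex Drd2 arrays. Every cortex Drd1a array was thus below every other array on these genes. The part of such neurons in the cortical values was not tested.

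Pde10a, the cAMP and cGMP phosphodiesterase abundant in striatal projection neurons, lay at 0.060, 0.10, 0.12 and -0.020 in striatum Drd1a arrays, against 0.18, 0.068, 0.093 and 0.059 in striatum Drd2 arrays. In cortex it lay at -0.70, -1.16, -1.10 and -0.90 in Drd1a arrays, against -0.42, -0.18, -0.27 and -0.052 in Drd2 arrays. The striatal groups overlapped and the cortical groups did not. The difference was -0.035 ± 0.10 in striatum and -0.73 ± 0.10 in cortex, with an interaction of 0.70 ± 0.14 (adjusted p = 0.022). Pde1b, a calmodulin-dependent phosphodiesterase, had 0.012 in striatum and -0.50 in cortex (interaction 0.51 ± 0.11, adjusted p = 0.032). Pde7b, a cAMP phosphodiesterase, had 0.069 in striatum and -0.49 in cortex (interaction 0.56 ± 0.13, adjusted p = 0.0416). Pde10a, Pde1b and Pde7b were the 3 called genes of 18 measured in cAMP and dopamine signalling, beside 0.312% of all features called positive. Of the 18, none was called in striatum, beside 2.04% of all features. In cortex Drd1a cells 10 were called lower and 1 higher, beside 4.66% of all features called either way. With the 16 arrays left out in turn, the call of Pde10a was lost 4 times, that of Pde1b 10 times and that of Pde7b 14 times.

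Foxp1, a forkhead factor of striatal projection neurons, lay at 0.015, 0.086, 0.059 and -0.11 in striatum Drd1a arrays, against 0.37, 0.36, 0.35 and 0.24 in striatum Drd2 arrays. The cortex Drd1a arrays held -0.79, -1.0, -0.96 and -0.93, against -0.22, -0.021, -0.084 and 0.11 in cortex Drd2 arrays. It was lower in Drd1a cells of both regions with no overlap, with differences of -0.31 ± 0.079 in striatum and -0.87 ± 0.079 in cortex. Its interaction of 0.55 ± 0.11 (adjusted p = 0.0253) was lost with 6 of the 16 arrays left out in turn. Actn2, an actin-crosslinking alpha-actinin of dendritic spines, had 0.20 in striatum and -0.64 in cortex (interaction 0.84 ± 0.16, adjusted p = 0.0153). Under the replicate block of cell type and number, Actn2, Pde10a, Foxp1 and Pde1b all lost their calls (adjusted p from 0.0661 to 0.112 by limma). Of the markers not called for the interaction, Meis2, a homeodomain factor, had -0.27 in striatum and -0.72 in cortex (interaction 0.45 ± 0.12, adjusted p = 0.0977). Rgs9, a brake on striatal G protein signalling, had 0.20 and -0.43 in the same regions (interaction 0.63 ± 0.16, adjusted p = 0.0757), and Ppp1r1b, the gene of the dopamine-regulated phosphatase inhibitor DARPP-32, -0.079 and -0.37 (interaction 0.29 ± 0.11, adjusted p = 0.301).

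Other genes lower in cortex Drd1a cells with no called striatal difference were of mixed function. Ubr3, a ubiquitin ligase, lay at 0.13, 0.24, 0.18 and 0.053 in cortex Drd1a arrays, against 1.18, 1.24, 0.78 and 0.62 in cortex Drd2 arrays. Here the cortex Drd2 arrays were the high group of the 4, and the striatal arrays lay between -0.29 and 0. The interaction was 0.93 ± 0.16 (adjusted p = 0.00708). Dach1, a nuclear co-repressor, had 0.0094 in striatum and -0.91 in cortex (interaction 0.92 ± 0.18, adjusted p = 0.0229), lost with 6 of the 16 arrays left out in turn. Pcdhb10, 1 of 2 called among the 50 cadherins and protocadherins measured (0.887% of all features were called), had -1.13 in cortex and an interaction of 1.04 ± 0.23 (adjusted p = 0.0403). Pcdhb10 belongs to a cluster of near-identical protocadherin genes, so its signal may be shared with them, and its call was lost with 11 of the 16 arrays left out in turn and under both other scalings.

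Ebf1, a transcription factor that direct-pathway neurons need for their differentiation, had the most positive interaction. It lay at 2.32, 2.23, 2.54 and 2.30 in striatum Drd1a arrays, against 0.17, 0.30, 0.61 and 0.22 in striatum Drd2 arrays. Cortical arrays gave 0.62, -0.15, 0.21 and 0 for Drd1a cells, against -0.18, -0.23, -0.017 and -0.27 for Drd2 cells. The striatum Drd1a arrays stood clear of all others, and the cortical groups overlapped. The difference was 2.02 ± 0.14 in striatum and 0.34 ± 0.14 in cortex, and the interaction was 1.68 ± 0.19, or 3.20-fold (adjusted p = 0.000294). Ebf1 and Foxp1 were the 2 called genes of 25 measured transcription factors of neuron identity, which had a median interaction of -0.10, beside 0.312% of all features called positive.

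Strip2 lay at 0.71, 0.66, 0.85 and 0.84 in striatum Drd1a arrays, against -0.013, -0.0040, -0.34 and 0.058 in striatum Drd2 arrays, and the cortical groups overlapped between -0.27 and 0.21. Its interaction was 0.99 ± 0.14 (adjusted p = 0.00183). Ano2, a calcium-activated chloride channel, had 1.14 in striatum and 0.30 in cortex (interaction 0.84 ± 0.14, adjusted p = 0.00709). Ebf1, Strip2, Ano2 and Reln kept their calls under the same alternatives. Further genes with a called striatal difference only were Prkch, a protein kinase C isoform (0.91 ± 0.20), Rab27a, a GTPase of vesicle docking (0.89 ± 0.18), Pla2g7, which breaks down platelet-activating factor (0.89 ± 0.17), Diaph2, a formin (0.83 ± 0.15), Sntg2, a syntrophin (0.82 ± 0.17), and Acadm, an enzyme of fatty acid oxidation (0.81 ± 0.18). These values are interactions, each with its standard error. Leaving out 1 array at a time ended the call of Prkch in 11 of 16 cases, Rab27a in 6, Pla2g7 in 4, Sntg2 in 10 and Acadm in 9. Prkch and Acadm were also not called under both other scalings, and Diaph2 was not called without the 4 arrays of high median (adjusted p = 0.0565). Pla2g7 was not called without those 4 arrays either. Diaph2, Pla2g7 and Acadm also lost their calls under the replicate block of cell type and number.

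Negative interactions with a called difference in striatum alone, where Drd1a cells were lower, numbered 19. Chrm3, the Gq-coupled muscarinic M3 receptor, lay at -1.91, -1.71, -1.61 and -2.09 in striatum Drd1a arrays, against -0.34, -0.67, 0.055 and 1.34 in striatum Drd2 arrays. Its cortical values were 0, 0.10, 0.34 and -0.32 in Drd1a arrays, against 0.58, -0.035, -0.23 and -0.69 in Drd2 arrays. The striatum Drd1a arrays were the lowest 4 of the 16, and the striatum Drd2 arrays spread widely. The difference was -1.93 ± 0.32 in striatum and 0.12 ± 0.32 in cortex. Its interaction of -2.05 ± 0.46 (adjusted p = 0.0416) was lost with 12 of the 16 arrays left out in turn (highest adjusted p 0.101) and under both other scalings. Of the 5 muscarinic receptors it was the 1 called, beside 0.575% of all features called negative, and Chrm4, described above with the direct pathway, had the opposite sign.

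Chrna4, the alpha4 subunit of nicotinic receptors, lay at -1.11, -0.80, -1.24 and -0.82 in striatum Drd1a arrays, against -0.45, 0.46, 0.093 and 0.78 in striatum Drd2 arrays. In cortex it lay at 0.088, -0.057, 0.24 and -0.067 in Drd1a arrays, against -0.35, -0.34, -0.14 and -0.19 in Drd2 arrays. In striatum the Drd1a arrays were all below the Drd2 arrays, and in cortex all above them. The difference was -1.21 ± 0.19 in striatum and 0.31 ± 0.19 in cortex, where it was not called, and the interaction was -1.52 ± 0.26 (adjusted p = 0.00845). Gabra3, the alpha3 subunit of GABA-A receptors and the 1 called gene of 19 GABA and glycine receptor subunits (0.575% of all features were called negative), had -0.79 in striatum and 0.45 in cortex (interaction -1.25 ± 0.23, adjusted p = 0.0137). That call was lost under the replicate block of cell type and number (adjusted p = 0.057 by limma).

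Cpne4, a copine, which binds phospholipids in the presence of calcium, lay at -2.67, -2.66, -1.75 and -2.43 in striatum Drd1a arrays, against -1.33, -1.29, -1.50 and -1.09 in striatum Drd2 arrays. The cortex Drd1a arrays held 0.97, 1.24, 1.20 and 0.73, against 0.77, 0.54, 0.29 and 0.19 in cortex Drd2 arrays. Both cortical groups were above both striatal groups, and only the striatal groups were apart from each other. Its interaction was -1.66 ± 0.25 (adjusted p = 0.00416). Fam163b had -1.01 in striatum and 0.28 in cortex (interaction -1.29 ± 0.16, adjusted p = 0.00067). Cdh6, a type II cadherin, had -0.95 in striatum and -0.16 in cortex (interaction -0.80 ± 0.14, adjusted p = 0.0129). Chrna4, Cpne4, Fam163b and Cdh6 kept their calls under the same alternatives. The secreted axon repellent Slit2 (-1.02 ± 0.22) and Nrxn2, a neurexin of the presynaptic membrane (-0.85 ± 0.18), had called interactions that were each lost with 11 of the 16 arrays left out in turn. Both also lost the call after quantile normalization and under the replicate block of cell type and number, and Slit2 after centring. With Nxph3, Nrxn2 made 2 called genes of 20 in synaptic adhesion, beside 0.575% of all features called negative.

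In 7 features the cell types differed in opposite directions in the 2 regions, all lower in striatum Drd1a cells and higher in cortex Drd1a cells. Fam81a lay at -0.75, -0.98, -1.06 and -1.11 in striatum Drd1a arrays, against -0.66, -0.32, -0.20 and -0.20 in striatum Drd2 arrays. Cortical arrays gave 0.87, 0.95, 0.76 and 0.89 for Drd1a cells, against 0.11, 0.27, 0.23 and 0 for Drd2 cells. No array of 1 cell type overlapped with the other in either region. The difference was -0.63 ± 0.10 in striatum and 0.72 ± 0.10 in cortex, and the interaction was -1.35 ± 0.15 (adjusted p = 0.000275).

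Sncb, the gene of the presynaptic protein beta-synuclein, lay at -0.80, -0.72, -0.63 and -0.78 in striatum Drd1a arrays, against -0.28, -0.18, -0.23 and -0.45 in striatum Drd2 arrays. Its cortical values were 0.69, 0.96, 0.72 and 0.86 in Drd1a arrays, against 0.20, 0, 0.29 and 0.17 in Drd2 arrays. The groups were again apart in both regions, with an interaction of -1.09 ± 0.12 (adjusted p = 0.000275). Cdk14, a cyclin-dependent kinase, had -0.68 in striatum and 0.42 in cortex (interaction -1.10 ± 0.15). Sobp had -0.44 in striatum and 0.65 in cortex (interaction -1.09 ± 0.14). Sparcl1, a matrix protein that promotes synapse formation, had -0.46 in striatum and 0.47 in cortex (interaction -0.93 ± 0.16, adjusted p = 0.00997), not called after quantile normalization at -0.56. Fam81a, Sncb, Cdk14 and Sobp kept their calls under the same alternatives.

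In 7 other features the differences had 1 sign but unequal size. Adk, the gene of adenosine kinase, which clears adenosine, lay at -1.31, -1.16, -1.29 and -1.48 in striatum Drd1a arrays, against 0.65, 0.56, 0.51 and 0.37 in striatum Drd2 arrays. In cortex it lay at -0.50, -0.029, -0.10 and -0.26 in Drd1a arrays, against 0.65, 0.83, 0.62 and 0.47 in Drd2 arrays. It was lower in Drd1a cells of both regions without overlap, with differences of -1.83 ± 0.11 in striatum and -0.87 ± 0.11 in cortex (interaction -0.96 ± 0.15, adjusted p = 0.00481). Ankk1, a kinase gene that lies next to Drd2 in the genome, had -2.49 ± 0.12 in striatum and -1.69 ± 0.12 in cortex. Its interaction of -0.80 ± 0.17 (adjusted p = 0.03) was lost with 9 of the 16 arrays left out in turn. Ankk1 was also not called after quantile normalization, at -0.53 (adjusted p = 0.418 by limma). Neither the replicate block of cell type and number nor the fit without the arrays of high median kept the call of Ankk1 (adjusted p = 0.063 and 0.0508 by limma). Efhd2, a calcium-binding regulator of actin, was higher in Drd1a cells of both regions, by 0.55 in striatum and 1.28 in cortex (interaction -0.73 ± 0.14, adjusted p = 0.0153). The interaction of Efhd2 was not called after quantile normalization, at -0.36, or with all 31 arrays in the fit (adjusted p = 0.0565). Its call was also lost under the replicate block of cell type and number (adjusted p = 0.0537 by limma). Eya1, Ptprm and Foxp1 have been described above.

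For 9 features neither regional difference was called, but the differences leaned opposite ways or added up. The ubiquitin ligase gene Marchf1 had -0.50 in striatum and 0.50 in cortex (interaction -1.0 ± 0.20, adjusted p = 0.0234). Pcbd1, an enzyme of pterin recycling, had -0.63 and 0.60 (-1.23 ± 0.26), Syt17, a synaptotagmin, -0.50 and 0.32 (-0.82 ± 0.18), and Nsmf, a synapse-to-nucleus messenger, -0.41 and 0.33 (-0.74 ± 0.15). Rps6ka5, a kinase of histones and CREB, had 0.38 in striatum and -0.35 in cortex (interaction 0.73 ± 0.16). None of these 5 kept its call with every array left out in turn.

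The dopamine receptors themselves had no called interaction among 5 measured genes, and neither did 73 potassium channel, 19 calcium channel, 9 sodium channel and 18 glutamate receptor subunits, 16 retinoid genes or 21 immediate early genes. Their smallest adjusted p was 0.0996 by limma. Markers of oligodendrocytes (15 measured), cholinergic interneurons (8), microglia (11), vessels (10), ependyma and choroid plexus (6) and striosome or matrix (7) held no called interaction either. Only 0.887% of all features were called, so lists of these sizes may hold none at that share. In cortex, 5 of the 15 oligodendrocyte markers were called lower in Drd1a than in Drd2 cells, beside 4.66% of all features called either way. In striatum, 4 of the 8 cholinergic markers were called lower in Drd1a cells, beside 2.04% of all features called either way. Among them was Slc5a7, the choline transporter gene, which was lower in Drd1a cells of both regions (-1.26 in striatum and -1.28 in cortex).

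The cell type marker lists also varied between arrays of 1 group. Cortical excitatory markers averaged -0.46 in striatum Drd1a replicate 3, against -1.39 to -1.22 in the other arrays of that group. Without this array the interaction count was 74, with 15 positive and 59 negative calls. Ependymal and choroid plexus markers averaged 1.07 in striatum Drd1a replicate 2, against -0.14 to -0.032 in the others, and without it the count was 184. In cortex Drd2 arrays the oligodendrocyte mean ran from 0.057 to 0.69 and the astrocyte mean from 0.068 to 0.70, with replicate 1 highest and replicate 4 lowest on both. Without cortex Drd2 replicate 1 the count was 243. The part of these cells in the results was not tested.

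**Figure D4:**
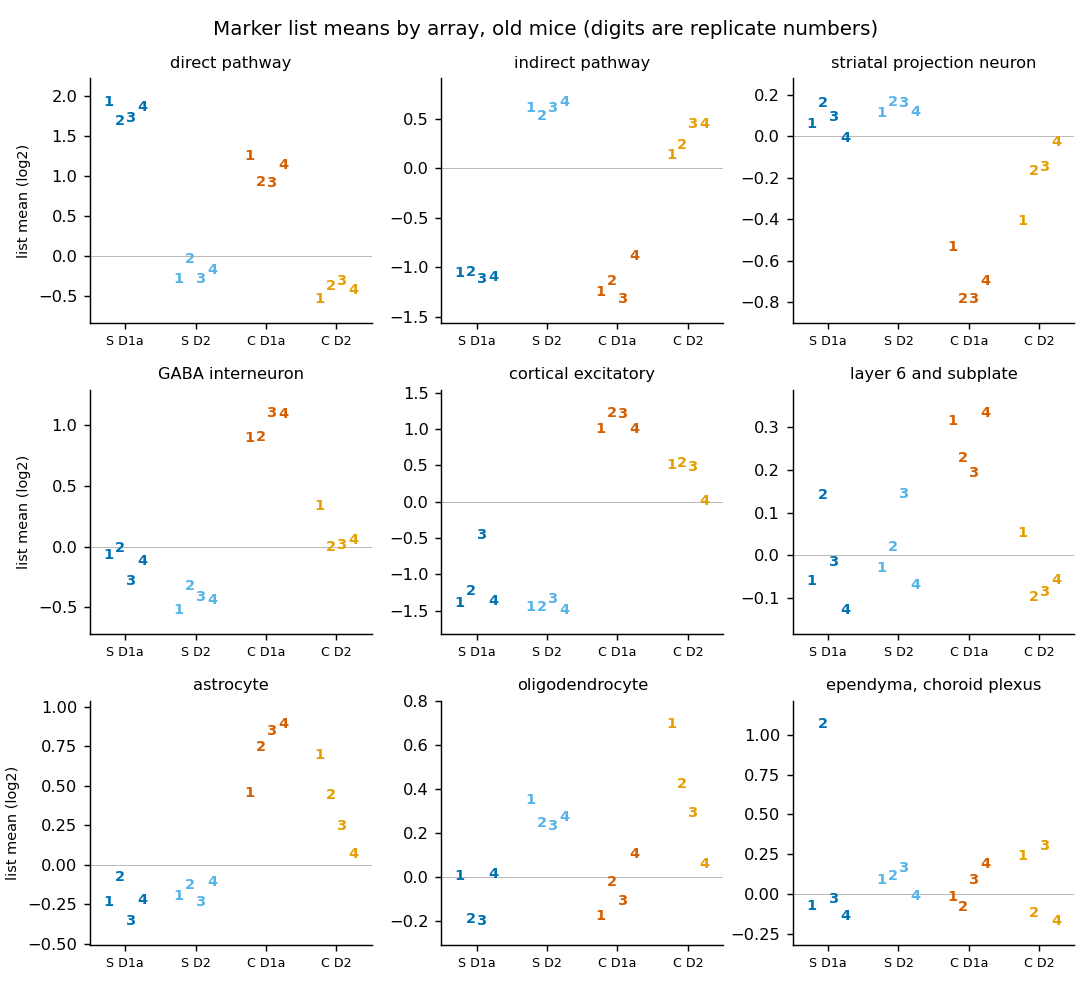
Mean of 9 marker lists in each of the 16 old arrays (log2 relative to the median of 31 arrays, y axis, with its own scale in each panel). Digits are replicate numbers, and groups run from striatum Drd1a and striatum Drd2 to cortex Drd1a and cortex Drd2 cells. The direct-pathway means of striatum Drd1a arrays (1.68 to 1.92) and cortex Drd1a arrays (0.91 to 1.25) lie above all Drd2 arrays, and single arrays stand apart for cortical excitatory and ependymal markers.

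The interaction was also taken in mice aged 6 weeks, with 3 striatum Drd1a arrays and 4 arrays in each other group. Of the 145 features called in old mice 142 had the same sign in young mice (97.9%), against 52.4% of all features. The median size was 0.83 in old mice, against 0.82 in young mice when each young value is taken in the direction of the old one. In a fit of all 31 arrays 229 features were called in old mice and 543 in young mice (3.32%), and 133 were called at both ages, which is 58.1% of the old and 24.5% of the young calls. The sign agreed for all 133. Both lists come from 1 fit with a shared estimate of the spread.

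The old minus young difference of the interaction was called for 0 of 16345 features (0%) by limma. The smallest adjusted p was 0.331, and 957 features (5.86%) had an unadjusted p under 0.05, 25 of them among the 145. With array weights limma called 3 features. The standard error of this difference had a median of 0.20, against 0.15 for the interaction in old mice alone. Vip had -3.23 in old mice, against -3.82 in young mice, and Ebf1 1.68 against 2.19. Pde1b had 0.51 in old mice, against 0.91 in young mice, and Chrm4 0.71 against 2.10. Of the 12 general markers of striatal projection neurons 4 were called in the fit of old arrays alone, beside 0.887% of all features. In young mice 11 were called in the fit of all 31 arrays, beside 3.32% of all features. These counts come from unlike fits and cannot be compared directly, and the test of the difference between ages called none.

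The sign differed between ages for 3 of the 145 features. They were Fxyd1, at -0.86 in old mice against 0.40 in young mice, Pla2g7, at 0.89 against -0.063, and Arid4a, at 0.70 against -0.087. Arid4a was named after its values were seen. The old call of Fxyd1 was lost with 11 of the 16 arrays left out in turn and under both other scalings. Fxyd1, the gene of phospholemman, which regulates the sodium pump, had the smallest p of the age difference, -1.26 (unadjusted p = 3.77e-05), and was 1 of the 3 called with array weights, at -1.39 (adjusted p = 0.0298). Its old cortex values were 0.50, 0.76, 1.00 and 0.46 in Drd1a arrays, against -0.22, -0.46, -0.57 and -0.81 in Drd2 arrays. The next smallest p-values belonged to Tmtc1 (-0.89), Calhm5 (1.46), Rab11a (0.75) and Ublcp1 (0.84), values of old minus young with none called after adjustment.

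**Figure D5:**
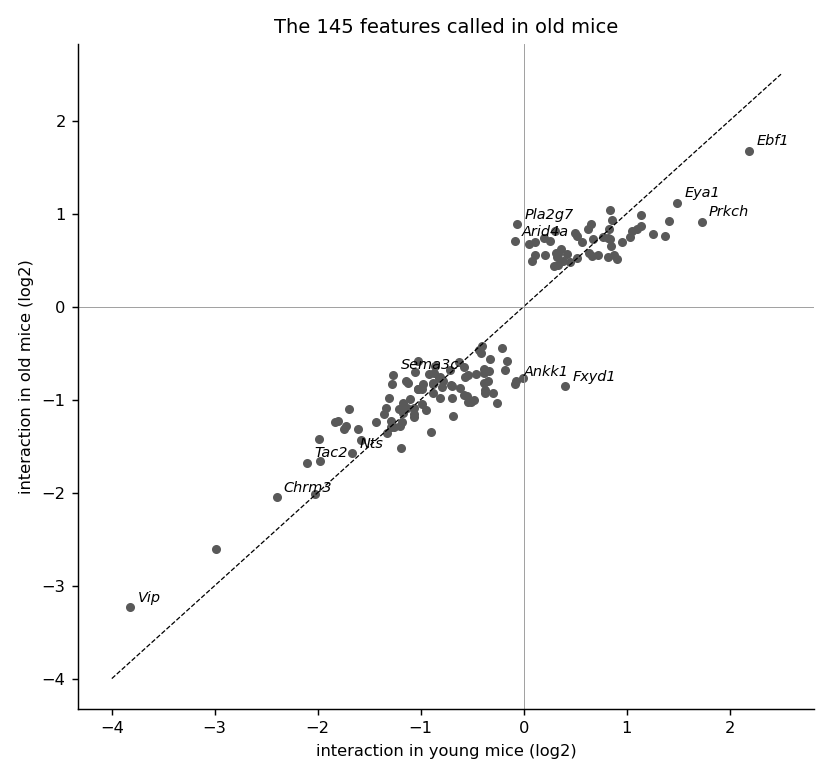
Interaction in young mice (x axis, log2) against that in old mice (y axis, log2) for the 145 features called in old mice. Points are features, with 4 arrays a group except 3 for young striatum Drd1a cells, and the dashed line marks equal values. The points follow the line from Vip at -3.23 old and -3.82 young to Ebf1 at 1.68 old and 2.19 young, and 3 features lie in quadrants of opposite sign.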

How the data were processed

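The deposited values are log2 values that the authors made with RMA on genome build mm8, per the submitters' processing notes, which hold no versions. Each feature was centred on its own median over the 31 arrays, as found from the values (a median of 0 for 16341 of 16345 features), so no absolute level or signal over background was used and no filter on dim features could be set. The unit of 3 deposited columns was entered as other since a whole number stands in 1 cell of each. Those 3 cells and 1 blank were treated as missing, 1 of them in an old array. Per the labels, RNA was fragmented and biotinylated with the Encore Biotin Module.

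Names came from the gene table of the platform: 14793 carried 1 symbol, 814 several and 738 none listed here. This gave 14769 genes, of which 14720 matched a RefSeq table. The 1290 features of chemosensory receptors, small RNAs, clones or genes known by prediction alone were counted but not named.

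The interaction was fitted with limma 3.58.1 in R 4.3.3 on the 16 old arrays (12 residual degrees of freedom), fitting the 4 group means with a prior of 5.07 degrees of freedom with SD 0.14. Tests were two-sided, with Benjamini-Hochberg adjustment over 16345 features. A call needed an adjusted p under 0.05 and at least a 1.2-fold change, as in the design text of the series. Old minus young was tested on all 31 arrays with 23 residual degrees of freedom. The code was tested on simulated data.

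The text names the 15 largest called interactions each way with 1 gene symbol, 5 of each pattern, up to 4 called members of each of 33 gene lists, the pathway markers and the 5 smallest p-values of the age difference. The members and lists were chosen with earlier results of these data known. Alternatives were other scalings, all 31 arrays, blocks, robust moderation, array weights, other fold thresholds and each array left out. Leaving out the 4 arrays with a median above 0.05 was added after the medians were seen.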

Additional observations from a re-analysis of the deposited data

Results flagged for a closer look

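In groups of 4 arrays, an array was picked out where its gap to the nearest other array took up most of the group's range by Dixon's test. Chance picks about 5% of groups. Of 236 groups of named genes 6 were picked, which is below that level. Of 60 groups of marker list means 5 were picked, which is above it.

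Eya1 lay at -0.56 in cortex Drd2 replicate 3, against -0.054 to 0 in the other 3 arrays. Reln lay at 1.29 in striatum Drd1a replicate 1, against 1.07 to 1.10. Diaph2 lay at 0 in cortex Drd1a replicate 1, against -0.41 to -0.34. Vip lay at -0.072 in striatum Drd1a replicate 2, against -0.46 to -0.43. Foxp1 lay at 0.24 in striatum Drd2 replicate 4, against 0.35 to 0.37. Pde7b lay at 0.24 in striatum Drd2 replicate 2, against 0.12 to 0.14.

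Among marker list means, the cholinergic list lay at 0.034 in cortex Drd1a replicate 4, against -0.14 to -0.13 in the other arrays of that group. The GABA interneuron list lay at 0.33 in cortex Drd2 replicate 1, against -0.0051 to 0.050. The cortical excitatory list lay at 0.015 in cortex Drd2 replicate 4, against 0.48 to 0.54. In striatum Drd1a replicate 2 the vessel list lay at 0.24, against -0.14 to -0.084, and the ependymal and choroid plexus list at 1.07, against -0.14 to -0.032. Striatum Drd1a replicate 2, cortex Drd1a replicate 4 and cortex Drd2 replicate 1 are among the 4 arrays with a median above 0.05.

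By limma's interaction test, 145 features had a Drd1a minus Drd2 difference that differed between old striatum and old cortex.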

How the results depend on the processing

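The interaction count of 145 became 229 with all 31 arrays in the fit, 1632 with array weights (357 positive and 1275 negative) and 249 without the 4 arrays of median above 0.05 (75 positive and 174 negative), with 105 of the 145 among the last. The labels do not say whether same-numbered samples are paired. Deviations of same-numbered striatal and cortical arrays correlated at -0.20 to 0.22, which cannot settle this with 4 arrays a group. A replicate block of cell type and number gave 91 calls and a block shared by all groups 103, and a random block, with an estimated correlation of -0.055, gave 117. The striatal difference gave 892 calls with array weights (408 higher and 484 lower) and 185 at 1.5-fold, and the cortical difference 1496 and 294. Old minus young gave 3 calls with array weights. With single arrays left out, the interaction count ran from 71 to 243, the striatal count from 228 to 366, the cortical count from 485 to 964 and that of old minus young from 0 to 1. The interaction count moved by more than 1.5 times without striatum Drd1a replicates 1 (90) and 3 (74), striatum Drd2 replicate 2 (93), cortex Drd1a replicates 2 (71), 3 (72) and 4 (94), and cortex Drd2 replicates 1 (243), 2 (83) and 4 (88). The cortical count did so without cortex Drd1a replicate 2 (485). Of 59 named genes with a called interaction, 36 kept the call after quantile normalization, 46 after centring, 55 with all 31 arrays, 34 with the block of cell type and number, 44 without the 4 arrays of median above 0.05 and 32 with every array left out. None changed sign, and 22 kept the call throughout. Robust moderation, array weights, the other blocks and the fold thresholds were run for the counts and not summarised for single genes. The interactions that changed sign were not called: Drd1, at 0.068 as deposited, lay at -0.87 after quantile normalization, Penk at 0.0034 after it and 0.0070 after centring, and Gpr6 at 0.040 and Ublcp1 at -0.081 without the 4 arrays. With arrays left out, Drd1 ran from -0.071 to 0.31, Tac1 from -0.090 to 0.20, Sfxn1 from -0.027 to 0.15 and Ublcp1 from -0.0041 to 0.16. The causes were not tested. The share of old calls with the same sign in young mice was 98.2% after quantile normalization, 98.5% after centring and 92.4% without the arrays of median above 0.05.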

Other observations

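Further called features fell outside the naming rule and were chosen after their values were seen. Dlx1, a homeodomain factor of GABA neurons, had -0.0041 in striatum and 0.80 in cortex (interaction -0.80 ± 0.17, adjusted p = 0.0322 by limma). Zeb2, a zinc-finger factor of interneuron migration, had -0.27 and 0.89 (interaction -1.16 ± 0.24, adjusted p = 0.0274). Tfap2d had an interaction of -1.24 ± 0.24 and Hes1, a Notch target, one of -0.68 ± 0.15, both with a called difference in cortex alone. Sox2, a stem cell and glial factor, had -1.17 in striatum and -0.14 in cortex (interaction -1.03 ± 0.19, adjusted p = 0.0152).

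Slc6a11, a GABA transporter, had -0.061 in striatum and 0.82 in cortex (interaction -0.88 ± 0.13). The alternatives were not summarised for these genes.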
